A study of Mus musculus with 48 samples.

Results

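The genes described here encode enzymes that break down amino acids in the liver, together with a few proteins that regulate or serve them. They were chosen as a named list of 43 genes from textbook pathways, sorted by the amino acid that each one helps to degrade, and the rule uses no measured value, although the list was drawn up with earlier results of these data known. All 43 are among the 14251 genes of the deposited count table, and all 43 passed the filter on low counts that left 12688 genes for testing. The lowest count of any of them in any library was 39.

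The livers came from male C57BL6J mice that drank water with corticosterone (Cort, 100 ug/ml), the main glucocorticoid hormone of rodents, or with its vehicle (EtOH, 1% ethanol) for 2 weeks. A subset within each treatment ate chow with atglistatin (ATGLi, 571 mg/kg), which blocks adipose triglyceride lipase (ATGL) and so lowers the release of fatty acids from stored fat, and the others ate control food (CON). The groups were Cort ATGLi (14 mice), Cort CON (14 mice), EtOH ATGLi (10 mice) and EtOH CON (10 mice), and all animals of all groups were of this strain and sex. The labels mark 1 Cort ATGLi mouse and 9 Cort CON mice as Diabetic and all others as Nondiabetic. RNA of whole powdered liver was measured with QuantSeq, which reads the 3′ ends of transcripts. Levels are in CPM, counts scaled to the library total after that total was adjusted by a TMM normalisation factor. They follow the abundance of a gene's transcripts relative to the other transcripts. The drug was given by mouth to the whole animal, so nothing in the design separates its action in fat tissue from its action in liver.

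Amino acid catabolism removes the amino group by transamination, dehydration or oxidative deamination and feeds the carbon skeletons into pyruvate, acetyl-CoA or citric acid cycle intermediates. In the fasted or glucocorticoid-treated liver these skeletons serve as substrate for gluconeogenesis, and tyrosine aminotransferase (Tat), tryptophan dioxygenase (Tdo2) and serine dehydratase (Sds) are classical glucocorticoid-induced liver enzymes. Methionine enters a cycle in which it donates methyl groups, becomes homocysteine, and is then either remade or passed on towards cysteine. Branched-chain amino acids are handled mostly outside the liver in their first step, while the liver carries the later, mitochondrial steps.

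Total counts ran from 7449109 to 21175603 per library, and replicates differed by more than sampling noise in every group (smallest chi-square per degree of freedom 6.21). The summed level of hepatocyte identity genes was high in every library, at 113000 to 161400 CPM in Cort ATGLi, 123200 to 173700 CPM in Cort CON, 103900 to 129500 CPM in EtOH ATGLi and 98390 to 148500 CPM in EtOH CON. Of 13 macrophage genes, 12 were lower with corticosterone on either diet, and their summed level was 91.56 to 517.5 CPM in Cort ATGLi and 113.7 to 240.7 CPM in Cort CON, against 258 to 424.5 CPM in EtOH ATGLi and 313.4 to 544.4 CPM in EtOH CON. All 5 testable lymphocyte genes were lower as well on either diet, and the part of these other cells in the enzyme results was not tested. Pancreatic acinar RNA was present in 6 libraries, defined by more than 20 CPM of the carboxypeptidase gene Cpa1. In bulk tissue, fewer cells of a type and less RNA per cell cannot be told apart. Glucose and insulin are labelled separately for every library, each library was taken as 1 mouse, and no cage, day or batch is given.

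Over the enzyme genes 5 libraries stood apart, each being the highest or the lowest of its group in at least 18 of the 43. Cort ATGLi replicate 41 was the lowest of its group for 28 genes, with a median log2 deviation of -0.60, and its correlation with its own group (mean r = 0.9563) was the lowest of all libraries. Cort CON replicate 45, labelled Diabetic, was the highest of its group for 25 genes. EtOH ATGLi replicate 14 was the highest for 26 genes and Cort ATGLi replicate 38 for 18, while EtOH CON replicate 10 was the lowest for 19. Leaving out any 1 of these 5 kept the number of changed genes between 22 and 26 for corticosterone on the control diet and between 15 and 18 on the atglistatin diet. It kept the number between 7 and 10 for atglistatin under corticosterone. Single results that rest on 1 of them are given with and without it below.

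Corticosterone changed 23 of the 43 genes on the control diet, with a call set at an adjusted p no higher than 0.05 in edgeR's quasi-likelihood test with adjustment over all genes tested. Of these, 16 were higher and 7 were lower in Cort CON than in EtOH CON. The shares have to be read against a broad response of the whole liver: 44.2% of all genes tested changed, 22.5% upward and 21.7% downward, against 53.5% of the enzyme genes, 37.2% upward and 16.3% downward. Among the 7566 genes with a mean level of at least 6.59 CPM, the lowest mean of any enzyme gene here, 28.2% rose and 18.5% fell. The median log2 fold change of the 43 genes was 0.13, against 0.01 for all genes. With atglistatin in the food, corticosterone changed 17 of the 43 genes, 9 upward and 8 downward, which is 39.5% beside a background of 36.7% (19% upward and 17.7% downward). The median over the 43 genes was 0.01 there, against 0.02 over all genes.

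**Figure D1:**
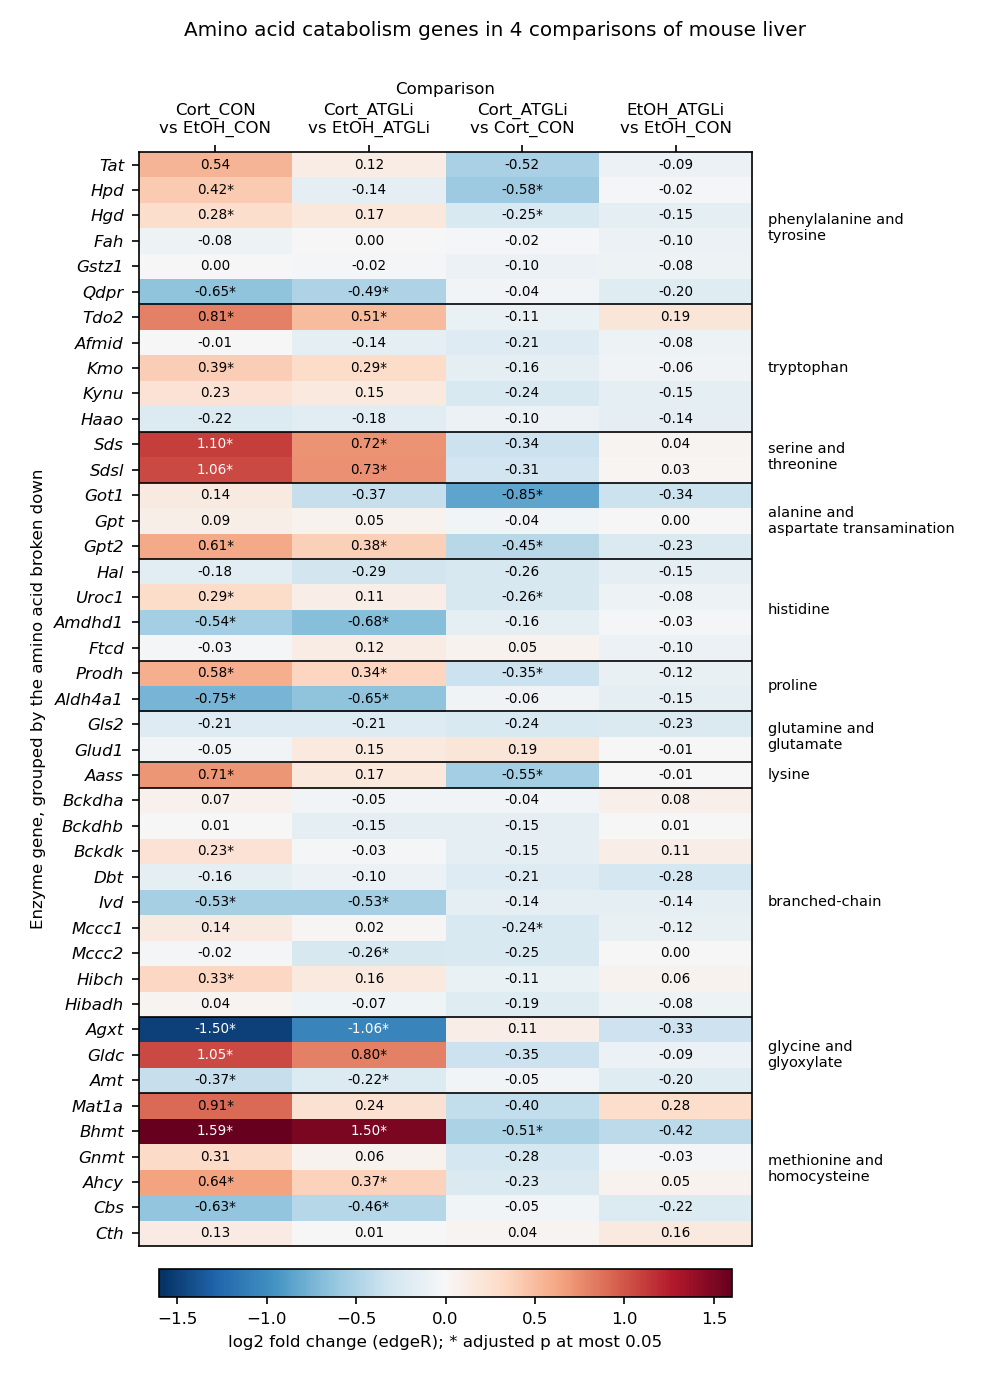
Log2 fold changes of the 43 genes (rows, grouped by the amino acid broken down) in 4 comparisons (columns, each the first-named group over the second); red is higher, blue is lower, and a star marks an adjusted p of at most 0.05. The corticosterone columns hold reds and blues within single pathways, from 1.59 for Bhmt to -1.5 for Agxt on the control diet, the third column is blue in 39 of 43 rows, and the last column has no star.

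The highest and the lowest fold change of the list belong to Bhmt and Agxt, and the sequence around their transcription start is shown because they carry that contrast. Bhmt encodes betaine-homocysteine methyltransferase, which remakes methionine from homocysteine (ENSMUSG00000074768, 13: 93616675 to 93637961, minus strand), and Agxt encodes alanine-glyoxylate aminotransferase, which turns glyoxylate into glycine (ENSMUSG00000026272, 1: 93135240 to 93145421, plus strand), both on GRCm38. The promoter windows run from 250 bases before to 50 bases after the start annotated by RefSeq on GRCm38.p6, chr13:93637709-93638008 on the minus strand and chr1:93134990-93135289 on the plus strand, written 5′ to 3′ along the gene. Capitals mark the 6 letters that one arm of the glucocorticoid receptor's palindromic site has, AGAACA or its reverse complement TGTTCT.
Bhmt: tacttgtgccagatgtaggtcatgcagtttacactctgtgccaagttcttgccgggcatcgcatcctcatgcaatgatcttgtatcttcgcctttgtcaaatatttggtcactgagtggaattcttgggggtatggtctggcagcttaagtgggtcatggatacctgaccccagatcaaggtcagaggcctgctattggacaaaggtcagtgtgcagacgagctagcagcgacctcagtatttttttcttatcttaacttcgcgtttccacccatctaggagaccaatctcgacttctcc
Agxt: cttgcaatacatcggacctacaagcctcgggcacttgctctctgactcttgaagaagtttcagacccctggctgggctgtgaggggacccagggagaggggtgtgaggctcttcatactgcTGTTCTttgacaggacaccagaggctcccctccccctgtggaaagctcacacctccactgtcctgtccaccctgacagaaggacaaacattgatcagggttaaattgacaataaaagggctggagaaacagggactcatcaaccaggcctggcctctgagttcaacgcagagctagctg
The gene that rose most has no such arm in its window, and the gene that fell most has 1. Such windows were found for 35 of the 43 genes. The full palindrome (AGAACA, any 3 letters, TGTTCT), searched like the others on both strands, was in 0 of the 35 and in 3 of 32851 windows of all genes (0.00913%). The single arm AGAACA was in 6 of 35 (17.1%), against 19.0% of all windows. The C/EBP sequence TTGCNNAA was in 4 of 35 (11.4%), against 10.8%, and the FoxO sequence TGTTTAC in 1 of 35 (2.86%), against 3.65%. These letters were thus about as common near the starts of the enzyme genes as near those of all genes, and sites farther away were not searched.

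In the methionine cycle, Bhmt and Ahcy rose and Cbs fell with corticosterone on both diets. Mat1a was called higher on the control diet alone, and Gnmt and Cth did not pass the test on either diet. Bhmt spanned 1126, 2382 and 3384 CPM (lowest, median and highest here and below) in Cort CON, against 526.9, 822.9 and 1106 CPM in EtOH CON. The groups did not overlap, and the level was 3.01-fold higher with corticosterone (log2 fold change 1.59 ± 0.19 (SE), adjusted p = 1.32e-09). With atglistatin Bhmt spanned 555.3, 1686 and 2417 CPM in Cort ATGLi and 321.2, 611.1 and 902.7 CPM in EtOH ATGLi. That was a 2.83-fold rise (1.5 ± 0.19, adjusted p = 9.78e-09), with 13 of 14 treated livers above the vehicle mean and replicate 41 as the exception. Reads of Bhmt and its close copy Bhmt2 could be shared by the counting, and Bhmt2 rose too, by 0.70 ± 0.08 on the log2 scale on the control diet (adjusted p = 1.26e-09).

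Mat1a, which makes the methyl donor S-adenosylmethionine from methionine, spanned 1395, 3875 and 12460 CPM in Cort CON, against 1874, 2323 and 2835 CPM in EtOH CON. The treated group was wide, with 3 of 14 livers below the vehicle mean and the highest value in replicate 45, and the log2 fold change was 0.91 ± 0.22 (adjusted p = 0.00062). Without replicate 45 it was 0.67 (adjusted p = 0.0025), and without the mice labelled Diabetic it was 0.23 (adjusted p = 0.412). On the atglistatin diet the log2 fold change of Mat1a was 0.24 ± 0.22 (adjusted p = 0.409), with 1909, 3209 and 4459 CPM in Cort ATGLi and 1873, 2794 and 3880 CPM in EtOH ATGLi. Ahcy, which hydrolyses the S-adenosylhomocysteine left after methyl transfer, rose on both diets. Its log2 fold change was 0.64 ± 0.11 on the control diet (adjusted p = 8.19e-06) and 0.37 ± 0.11 on the atglistatin diet (adjusted p = 0.00885). Ahcy spanned 214.5, 307.1 and 459.5 CPM in Cort CON and 156.8, 180.4 and 285.5 CPM in EtOH CON.

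Cbs, cystathionine beta-synthase, joins homocysteine with serine and so takes it out of the cycle. It spanned 176.6, 280.3 and 450.2 CPM in Cort CON, against 258, 436 and 608.6 CPM in EtOH CON. It was lower in 13 of 14 treated livers (-0.63 ± 0.14, adjusted p = 0.000318). The same direction was seen on the atglistatin diet, with 137.4, 287.7 and 370.3 CPM in Cort ATGLi and 280.4, 361.5 and 539.3 CPM in EtOH ATGLi (-0.46 ± 0.14, adjusted p = 0.0102). With the clock index described below as a covariate, that second value was -0.34 (adjusted p = 0.117). Cth, the next enzyme towards cysteine, had log2 fold changes of 0.13 ± 0.12 and 0.01 ± 0.12 on the control and atglistatin diets. Gnmt, which spends S-adenosylmethionine on glycine, had 0.31 ± 0.13 (adjusted p = 0.0507) and 0.06 ± 0.13.

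The glycine genes split within a single enzyme complex. Gldc, the decarboxylating subunit of the glycine cleavage system, rose, while Amt, the aminomethyltransferase subunit of the same system, fell, and Agxt fell further than any other gene of the list. Agxt spanned 28.28, 48.36 and 71 CPM in Cort CON, against 84, 131.1 and 218.1 CPM in EtOH CON. No treated liver reached the lowest vehicle liver, and the level was 2.83-fold lower with corticosterone (-1.5 ± 0.16, adjusted p = 1.07e-10). In the atglistatin-fed mice Agxt spanned 17.87, 54.06 and 69.46 CPM in Cort ATGLi and 86.87, 100.4 and 204.2 CPM in EtOH ATGLi. The groups again did not overlap, and the fall was 2.09-fold (-1.06 ± 0.16, adjusted p = 6.86e-07). Without EtOH ATGLi replicate 14, whose Agxt level stood apart, it was -0.93 (adjusted p = 5.3e-06).

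Gldc spanned 56.69, 74.54 and 156.8 CPM in Cort CON, against 23.17, 45 and 54.92 CPM in EtOH CON, with every treated liver above every vehicle liver. The rise was 2.07-fold on the control diet (1.05 ± 0.18, adjusted p = 2.46e-06) and 1.74-fold on the atglistatin diet (0.80 ± 0.17, adjusted p = 0.000268). Amt moved the other way and by less: it spanned 33.27, 41.85 and 46.85 CPM in Cort CON and 35.2, 54.22 and 63.68 CPM in EtOH CON. All 14 treated livers were below the vehicle mean (-0.37 ± 0.08, adjusted p = 0.000122). On the atglistatin diet its change of -0.22 ± 0.08 (adjusted p = 0.0254) was lost when EtOH ATGLi replicate 9 or 14 was left out (-0.19 and -0.2) and with the clock index as a covariate (-0.2, adjusted p = 0.0823).

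Both serine and threonine dehydratase genes rose with corticosterone. Sdsl, a homologue of Sds that lies beside it on chromosome 5, spanned 14.85, 20.14 and 48.72 CPM in Cort CON, against 6.85, 9.507 and 19.41 CPM in EtOH CON. All 14 treated livers were above the vehicle mean, and the log2 fold change was 1.06 ± 0.18 (adjusted p = 2.29e-06) on the control diet and 0.73 ± 0.17 (adjusted p = 0.000818) on the atglistatin diet. Without the mice labelled Diabetic the first of these was 0.67 (adjusted p = 0.0116). Sds, which turns serine into pyruvate, spanned 119, 224.5 and 926.4 CPM in Cort CON, against 22.05, 128.4 and 220.5 CPM in EtOH CON. It rose by 1.10 ± 0.29 (adjusted p = 0.00161), with 12 of 14 treated livers above the vehicle mean, and its spread was among the widest of the list. Without the mice labelled Diabetic the value was 0.41 (adjusted p = 0.371). Among atglistatin-fed mice Sds spanned 151.4, 209.5 and 293.8 CPM in Cort ATGLi and 64.6, 100.6 and 329.4 CPM in EtOH ATGLi. All 14 treated livers were above the vehicle mean (0.72 ± 0.29, adjusted p = 0.0435), but the call was lost in 28 of the 48 fits that each left out 1 library, in which the value ran from 0.61 to 0.99. The highest of these, 0.99 (adjusted p = 0.00452), came without EtOH ATGLi replicate 14. The gene Plbd2 overlaps the 3′ end of Sds on the other strand, and whether the counting used strand is not given in the sources used here, so part of the Sds count may belong to it.

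**Figure D2:**
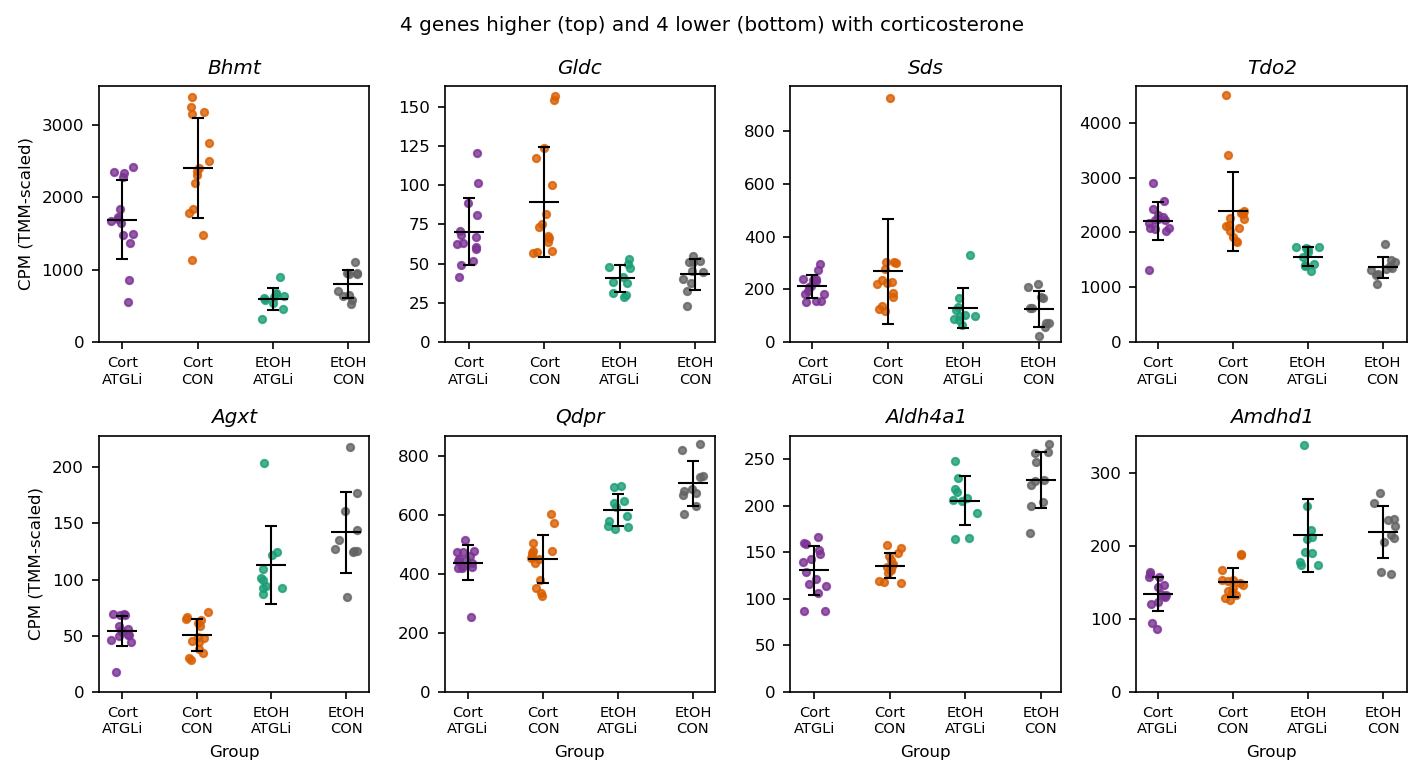
Level in CPM (y axis, from 0) of 8 genes in each mouse (points), with the mean and SD of each group (bars), for Cort ATGLi, Cort CON, EtOH ATGLi and EtOH CON from left to right. Bhmt, Gldc, Sds and Tdo2 (top) sit higher in the corticosterone groups, and Agxt, Qdpr, Aldh4a1 and Amdhd1 (bottom) sit lower.

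Along the tryptophan pathway the entry enzyme and 1 later enzyme rose. Tdo2, which opens the indole ring of tryptophan, spanned 1817, 2185 and 4501 CPM in Cort CON, against 1059, 1341 and 1788 CPM in EtOH CON. The groups did not overlap (0.81 ± 0.12, adjusted p = 9.54e-08), and without Cort CON replicate 45 the value was 0.69 (adjusted p = 4.88e-08). With the drug in the food, Tdo2 spanned 1310, 2223 and 2904 CPM in Cort ATGLi and 1286, 1593 and 1736 CPM in EtOH ATGLi. There 13 of 14 treated livers were above the vehicle mean (0.51 ± 0.11, adjusted p = 0.000385). Kmo, kynurenine monooxygenase, rose by 0.39 ± 0.09 on the control diet (adjusted p = 0.000344) and by 0.29 ± 0.09 on the atglistatin diet (adjusted p = 0.00821). The first of these was 0.25 without the mice labelled Diabetic (adjusted p = 0.0794). The formamidase Afmid, the kynureninase Kynu and the dioxygenase Haao did not pass the test on either diet. Haao came close on the control diet at -0.22 ± 0.10 (adjusted p = 0.0533) and passed in DESeq2 (-0.24, adjusted p = 0.0346) and in limma (-0.23, adjusted p = 0.00714). Kynu stood at 0.23 ± 0.10 there (adjusted p = 0.0563).

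Tyrosine breakdown gave a more mixed picture. Tat, the aminotransferase that starts it, did not pass the test on either diet. It spanned 209.5, 469.2 and 1473 CPM in Cort CON, against 98.46, 428.5 and 851.5 CPM in EtOH CON. The groups overlapped over most of their ranges (0.54 ± 0.27, adjusted p = 0.105, 95% interval 0.00 to 1.07), and without EtOH CON replicate 12 the value was 0.74 (adjusted p = 0.0257). For the atglistatin diet the interval ran from -0.41 to 0.65 around 0.12 ± 0.27. The next enzyme, Hpd, rose on the control diet, with 904.9, 1122 and 2208 CPM in Cort CON and 626.1, 808.4 and 1262 CPM in EtOH CON. All 14 treated livers were above the vehicle mean (0.42 ± 0.13, adjusted p = 0.0072), and without the mice labelled Diabetic the value was 0.3 (adjusted p = 0.151). Under atglistatin its value was -0.14 ± 0.13 (adjusted p = 0.422). Hgd, the homogentisate dioxygenase that follows, rose by 0.28 ± 0.10 on the control diet (adjusted p = 0.0168), a call that was lost without Cort CON replicate 45 (0.22) and without the libraries holding Cpa1 (0.27, adjusted p = 0.0618). Without the mice labelled Diabetic the Hgd value was 0.06 (adjusted p = 0.75). Gstz1 and Fah, which complete the pathway, stood at 0.00 ± 0.09 and -0.08 ± 0.09. Psmd9 overlaps the 3′ end of Hpd on the other strand.

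Qdpr, dihydropteridine reductase, regenerates the tetrahydrobiopterin that aromatic amino acid hydroxylases need. It spanned 324.9, 457.2 and 603 CPM in Cort CON, against 605.4, 685.8 and 840.5 CPM in EtOH CON. The same separation was seen on the atglistatin diet, with 254, 447.6 and 517 CPM in Cort ATGLi and 552.5, 613.2 and 699.6 CPM in EtOH ATGLi. The groups did not overlap on either diet, and Qdpr fell by 0.65 ± 0.09 on the log2 scale on the control diet (adjusted p = 1.61e-08) and by 0.49 ± 0.09 on the atglistatin diet (adjusted p = 9.22e-06).

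Proline breakdown also split between its consecutive steps. Prodh, proline dehydrogenase, spanned 68.15, 93.42 and 109.5 CPM in Cort CON, against 34.74, 63.01 and 77.61 CPM in EtOH CON, and rose by 0.58 ± 0.12 (adjusted p = 5.93e-05). Aldh4a1, which oxidises the product of that step to glutamate, spanned 116.8, 134.7 and 157.7 CPM in Cort CON, against 171, 227.5 and 266.3 CPM in EtOH CON. The Aldh4a1 groups did not overlap (-0.75 ± 0.09, adjusted p = 1.3e-09). In mice fed atglistatin, Aldh4a1 was lower in all 14 treated livers than the vehicle mean (-0.65 ± 0.09, adjusted p = 6.8e-08). There Prodh rose by 0.34 ± 0.12 (adjusted p = 0.0173), a call that was lost without EtOH ATGLi replicate 12 or 13 (smallest value 0.28) and with the clock index as a covariate (0.34, adjusted p = 0.0574). Dgcr6 overlaps the 3′ end of Prodh on the other strand.

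Histidine is degraded through Hal, Uroc1, Amdhd1 and Ftcd in that order, and the inner pair of steps moved apart on the control diet. Amdhd1, imidazolonepropionase, spanned 125.8, 147.6 and 188.6 CPM in Cort CON, against 161.4, 220.8 and 272.5 CPM in EtOH CON (-0.54 ± 0.10, adjusted p = 1.62e-05). On the atglistatin diet it spanned 86.13, 133.3 and 163.6 CPM in Cort ATGLi and 173.5, 200.3 and 338.2 CPM in EtOH ATGLi. There every treated liver was below every vehicle liver (-0.68 ± 0.10, adjusted p = 5.07e-07). Uroc1, urocanase, rose on the control diet by 0.29 ± 0.10 (adjusted p = 0.0151), with 10 of 14 treated livers above the vehicle mean, and the call was lost without the libraries holding Cpa1 (0.27, adjusted p = 0.062). Without the mice labelled Diabetic the Uroc1 value was 0.14 (adjusted p = 0.404). Hal stood at -0.18 ± 0.14 and -0.29 ± 0.14 on the control and atglistatin diets, and Ftcd at -0.03 ± 0.11 and 0.12 ± 0.11.

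Among the transaminases, Gpt2, the mitochondrial alanine aminotransferase, rose on both diets. It spanned 239.7, 315.7 and 439.9 CPM in Cort CON, against 179.4, 215.7 and 251.7 CPM in EtOH CON (0.61 ± 0.09, adjusted p = 3.99e-07). All 14 treated livers were above the vehicle mean there, and 13 of 14 were on the atglistatin diet (0.38 ± 0.09, adjusted p = 0.00081). Its cytosolic counterpart Gpt stood at 0.09 ± 0.10 and 0.05 ± 0.10. Got1, cytosolic aspartate aminotransferase, stood at 0.14 ± 0.28 (adjusted p = 0.716) on the control diet with the widest range of treated livers, 71.23, 180.8 and 863.1 CPM in Cort CON against 104.5, 176.3 and 344.3 CPM in EtOH CON. The glutamate genes Gls2 (glutaminase) and Glud1 (glutamate dehydrogenase) passed the test on neither diet, at -0.21 ± 0.16 and -0.05 ± 0.08 on the control diet. Without the mice labelled Diabetic, Gls2 was lower with corticosterone on the control diet, at -0.53 (adjusted p = 0.0476).

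Aass, which carries out the first steps of lysine breakdown, spanned 194.5, 259.9 and 423.7 CPM in Cort CON, against 128.2, 171.6 and 207.4 CPM in EtOH CON. All 14 treated livers were above the vehicle mean (0.71 ± 0.12, adjusted p = 1.63e-06). For mice fed atglistatin, Aass spanned 119.5, 181.7 and 254.3 CPM in Cort ATGLi and 110.6, 164.6 and 254.1 CPM in EtOH ATGLi, ranges that largely coincide (0.17 ± 0.11, adjusted p = 0.253).

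Of the 9 branched-chain genes, 2 were higher and 1 was lower on the control diet (33.3%, beside 44.2% of all genes tested). On the atglistatin diet 0 were higher and 2 were lower (22.2%, beside 36.7% of all genes tested). Ivd, isovaleryl-CoA dehydrogenase of leucine breakdown, spanned 51.46, 66.04 and 92.83 CPM in Cort CON, against 88.06, 95.67 and 117.8 CPM in EtOH CON. It fell by 0.53 ± 0.11 on both the control diet (adjusted p = 5.85e-05) and the atglistatin diet (adjusted p = 8.02e-05), with all 14 treated livers below the vehicle mean each time. Hibch, which releases 3-hydroxyisobutyrate from its CoA ester in valine breakdown, rose on the control diet by 0.33 ± 0.08 (adjusted p = 0.000994). Bckdk, the kinase that inhibits the branched-chain ketoacid dehydrogenase, rose there by 0.23 ± 0.09 (adjusted p = 0.0342), a call lost in 10 of the fits that left out 1 library (0.16 to 0.28 over all of them) and without the mice labelled Diabetic (0.18, adjusted p = 0.322). The dehydrogenase's own subunit genes Bckdha, Bckdhb and Dbt stood at 0.07 ± 0.09, 0.01 ± 0.06 and -0.16 ± 0.10 on the control diet. Mccc2, a subunit of methylcrotonyl-CoA carboxylase, fell on the atglistatin diet by 0.26 ± 0.10 (adjusted p = 0.0378), and the call was lost without Cort ATGLi replicate 41 and without EtOH ATGLi replicate 9 or 14 (-0.31 to -0.22 over all such fits). With the clock index as a covariate the Mccc2 value was -0.13 (adjusted p = 0.404). The other subunit, Mccc1, stood at 0.02 ± 0.08 there, and the valine enzyme Hibadh at -0.07 ± 0.08.

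The responses on the control diet and on the atglistatin diet share no library, so they can be set side by side. Of the 43 genes, 16 changed on both diets and in the same direction each time, 9 upward and 7 downward. These make up 69.6% of the calls on the control diet and 94.1% of those changed on the atglistatin diet. The same overlap was not worked out over all genes, of which 44.2% changed on the control diet and 36.7% on the atglistatin diet. The overlap is therefore not shown to be particular to these enzymes. Groups without any overlap were found for 6 genes on the control diet (Bhmt, Gldc, Tdo2, Agxt, Aldh4a1 and Qdpr), beside 6.11% of all genes, and for 3 on the atglistatin diet (Agxt, Amdhd1 and Qdpr), beside 3.14%. The fold changes of the 43 genes on the control and atglistatin diets had a Pearson r of 0.935 across genes, which is a description, since genes are not independent replicates. The genes called on the control diet alone were Hpd, Hgd, Uroc1, Aass, Bckdk, Hibch and Mat1a, all upward, and Mccc2 was called on the atglistatin diet alone.

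Whether the corticosterone response differs between diets was tested directly as the interaction of both factors. In edgeR 0 of the 43 genes passed, beside 1.43% of all genes. An unadjusted p of at most 0.05 was reached by 4 of the 43, beside 1497 of 12688 genes in all. The smallest adjusted p, 0.075, belonged to Aass, whose response was lower on the atglistatin diet by 0.54 ± 0.16 on the log2 scale. DESeq2 called Aass alone of the 43 (-0.54, adjusted p = 0.0439), beside 265 of 12688 genes in all. The limma fit called 0 of the 43, beside 359 of 12688. In the fits that left out 1 library, edgeR called Aass in 4 of 48. The interaction was positive for 10 of the 43 genes, while over all genes it was positive for 6431 of 12688. The genes called on 1 diet alone were therefore not shown to respond differently between diets.

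**Figure D3:**
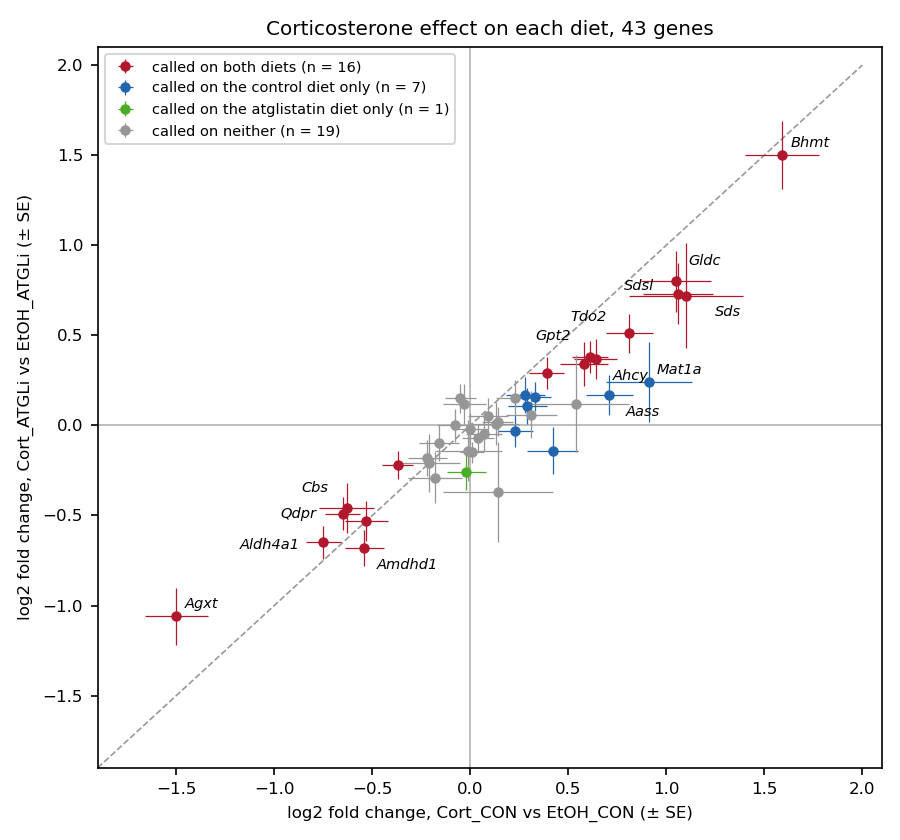
Log2 fold change of each of the 43 genes with corticosterone on the control diet (x axis, Cort_CON vs EtOH_CON) and on the atglistatin diet (y axis, Cort_ATGLi vs EtOH_ATGLi), with bars of 1 SE and the line of equal change dashed. Points in red (16 genes called on both diets) lie on both sides of 0 near the line, and the 7 blue points called on the control diet alone lie below it.

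Within corticosterone-treated mice, atglistatin lowered 9 of the 43 genes and raised 0 in edgeR. The limma fit called 4 lower and 1 higher (Glud1, 0.19, adjusted p = 0.0484), beside 2063 of 12688 genes called in all. The 9 in edgeR were Hpd, Hgd, Got1, Gpt2, Uroc1, Prodh, Aass, Mccc1 and Bhmt, or 20.9% of the list, beside 11.7% of all genes changed, 6.47% lowered and 5.19% raised. None of the 43 had groups without overlap, beside 0.323% of all genes. Among genes of at least 6.59 CPM, 6.89% were lowered. Of 13 hepatocyte identity genes 3 were lowered and 0 raised, and of 14 periportal hepatocyte genes 3 and 0. Of 38 further enzymes of amino acid breakdown, 9 were lowered and 3 raised. The lowering is therefore not shown to be particular to the 43 genes. The fold change was negative for 39 of the 43 genes, with a range of -0.85 to 0.19 and a median of -0.21, against 0.00 for all genes. Of the 9 genes, 7 (all but Got1 and Mccc1) were among those that corticosterone raised on the control diet. Both comparisons use the same Cort CON libraries, so that overlap is no independent result.

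The lowest adjusted p belonged to Gpt2, at 173.1, 233.5 and 316.2 CPM in Cort ATGLi and 239.7, 315.7 and 439.9 CPM in Cort CON. All 14 Cort ATGLi livers were below the Cort CON mean (-0.45 ± 0.08, adjusted p = 0.000132). Aass spanned 119.5, 181.7 and 254.3 CPM in Cort ATGLi, against 194.5, 259.9 and 423.7 CPM in Cort CON (-0.55 ± 0.10, adjusted p = 0.000184). Hpd spanned 418.7, 802.1 and 1006 CPM in Cort ATGLi, against 904.9, 1122 and 2208 CPM in Cort CON, and was below the Cort CON mean in all 14 (-0.58 ± 0.12, adjusted p = 0.000509). The ranges of these 3 genes overlap, but their medians in Cort ATGLi lie below the lowest Cort CON liver. Bhmt fell by 0.51 ± 0.16 (adjusted p = 0.034), and Prodh by 0.35 ± 0.10 (adjusted p = 0.0197). Hgd (-0.25 ± 0.09, adjusted p = 0.0485), Uroc1 (-0.26 ± 0.09, adjusted p = 0.0482) and Mccc1 (-0.24 ± 0.07, adjusted p = 0.0285) passed narrowly. The Hgd call was lost in 20, the Uroc1 call in 21 and the Bhmt call in 7 of the 48 fits that left out 1 library (Bhmt -0.57 to -0.44 over all of them). The Mccc1 call was lost without Cort CON replicate 36.

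Got1 had the lowest fold change, -0.85 ± 0.25 (adjusted p = 0.0214), with 75.16, 126.1 and 222.9 CPM in Cort ATGLi and 71.23, 180.8 and 863.1 CPM in Cort CON. This call rested on few libraries: without Cort CON replicate 45 the value was -0.52 (adjusted p = 0.107), without the mice labelled Diabetic it was 0.08 (adjusted p = 0.919), and with limma it was -0.5 (adjusted p = 0.1). The labels place 9 of the 10 Diabetic mice in Cort CON, so the diet and the label are partly the same split. Without these mice, 13 Cort ATGLi and 5 Cort CON libraries were left, 1 gene passed (Gpt2, at -0.35), and the median over the 43 genes was -0.08. Of the other 8, Bhmt (-0.62), Hpd (-0.45), Aass (-0.43), Prodh (-0.42) and Mccc1 (-0.22) lost the call with adjusted p-values of 0.0986, 0.0651, 0.0578, 0.0875 and 0.226. Hgd and Uroc1 shrank to -0.05 (adjusted p = 0.879) and -0.11 (adjusted p = 0.686), and Got1 changed sign. The number of genes called over the whole liver was also lower in that smaller set of mice, at 609 of 13070.

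Clock genes moved with the diet as well. The log2 level of Dbp minus that of Arntl, which differs by time of day in liver, averaged 0.56 in Cort ATGLi, -1.73 in Cort CON, 2.85 in EtOH ATGLi and -0.80 in EtOH CON. With this index as a covariate, atglistatin under corticosterone lowered 8 of the 43 genes and raised 0. Over all genes 773 of 13368 changed in either direction, and those lowered were not counted apart. Of the 8, 5 were shared with the 9 above (Hpd, Got1, Gpt2, Uroc1 and Aass). The call of Bhmt was lost with a smaller fold change (-0.32, adjusted p = 0.384). Those of Hgd (-0.26, adjusted p = 0.149), Prodh (-0.35, adjusted p = 0.0949) and Mccc1 (-0.2, adjusted p = 0.205) were lost with fold changes close to those without the index. Kmo, Mccc2 and Ahcy passed. Time of collection is not in the labels, and its part in these results was not tested further.

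In vehicle-treated mice atglistatin changed 0 of the 43 genes in edgeR, beside 3.13% of all genes (1.47% upward and 1.66% downward). With an unadjusted p of at most 0.05 there were 5 of the 43, beside 2043 of 12688 genes in all. DESeq2 called 0 of the 43, beside 562 of 12688 genes in all. The limma fit called 2, Dbt (-0.34, adjusted p = 0.0247) and Amt (-0.22, adjusted p = 0.0399), beside 899 of 12688. Fold changes ran from -0.42 for Bhmt to 0.28 for Mat1a, with 11 of the 43 positive and a median of -0.08. Over all genes 6268 of 12688 were positive. Bhmt spanned 321.2, 611.1 and 902.7 CPM in EtOH ATGLi and 526.9, 822.9 and 1106 CPM in EtOH CON (-0.42 ± 0.19, adjusted p = 0.262). Got1, Gpt2 and Hpd, which were lower with atglistatin under corticosterone, stood at -0.34 ± 0.30, -0.23 ± 0.10 and -0.02 ± 0.14 here. None of these values passed edgeR's test after adjustment over all genes.

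The Diabetic label splits the Cort CON group into 9 Diabetic and 5 Nondiabetic mice. Labelled glucose, given without a unit, was 254 in the lowest Diabetic mouse of Cort CON (replicate 37) and 242 in the highest Nondiabetic mouse (replicate 36). The Diabetic mouse of Cort ATGLi (replicate 26) had 212, so the label does not follow 1 glucose limit across groups. In edgeR 0 of 12003 genes passed between the Diabetic and Nondiabetic mice of Cort CON, a background of 0%, and so did 0 of the 43. An unadjusted p of at most 0.05 was reached by 7 enzyme genes and 448 genes in all, and DESeq2 and limma called 0 of the 43. The fold changes were positive for 29 of the 43 genes and ran from -0.42 for Agxt to 1.26 for Got1. Over all genes 5976 of 12003 were positive. The values of the 3 genes with the highest fold changes are given because the spread of Cort CON was widest for them.

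Got1 spanned 71.23, 255 and 863.1 CPM in Diabetic mice, against 82.39, 84.36 and 203.1 CPM in Nondiabetic mice (1.26 ± 0.44, adjusted p = 0.992). Sds spanned 119, 277.1 and 926.4 CPM in Diabetic mice, against 124.7, 169.1 and 225.7 CPM in Nondiabetic mice (0.93 ± 0.35, adjusted p = 0.992). Mat1a spanned 1544, 4426 and 12460 CPM in Diabetic mice, against 1395, 3097 and 4114 CPM in Nondiabetic mice (0.92 ± 0.39, adjusted p = 0.992). For each of the 3 genes the lowest Diabetic mouse lay within or below the Nondiabetic range, and the highest was replicate 45. Without replicate 45 the values were 0.87, 0.56 and 0.66. The comparison of Nondiabetic Cort CON mice with EtOH CON mice bears on the same genes: Got1 was then lower with corticosterone, at -0.81 (adjusted p = 0.0238), where it stood at 0.14 with all mice. In that set corticosterone changed 18 of the 43 genes, 9 upward and 9 downward, of which 16 were also called with all mice, beside 3614 of 13070 genes in all. The calls of Hpd, Hgd, Kmo, Sds, Uroc1, Bckdk and Mat1a were lost, all of them upward with all mice, and Got1 and Gls2 were called downward.

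**Figure D4:**
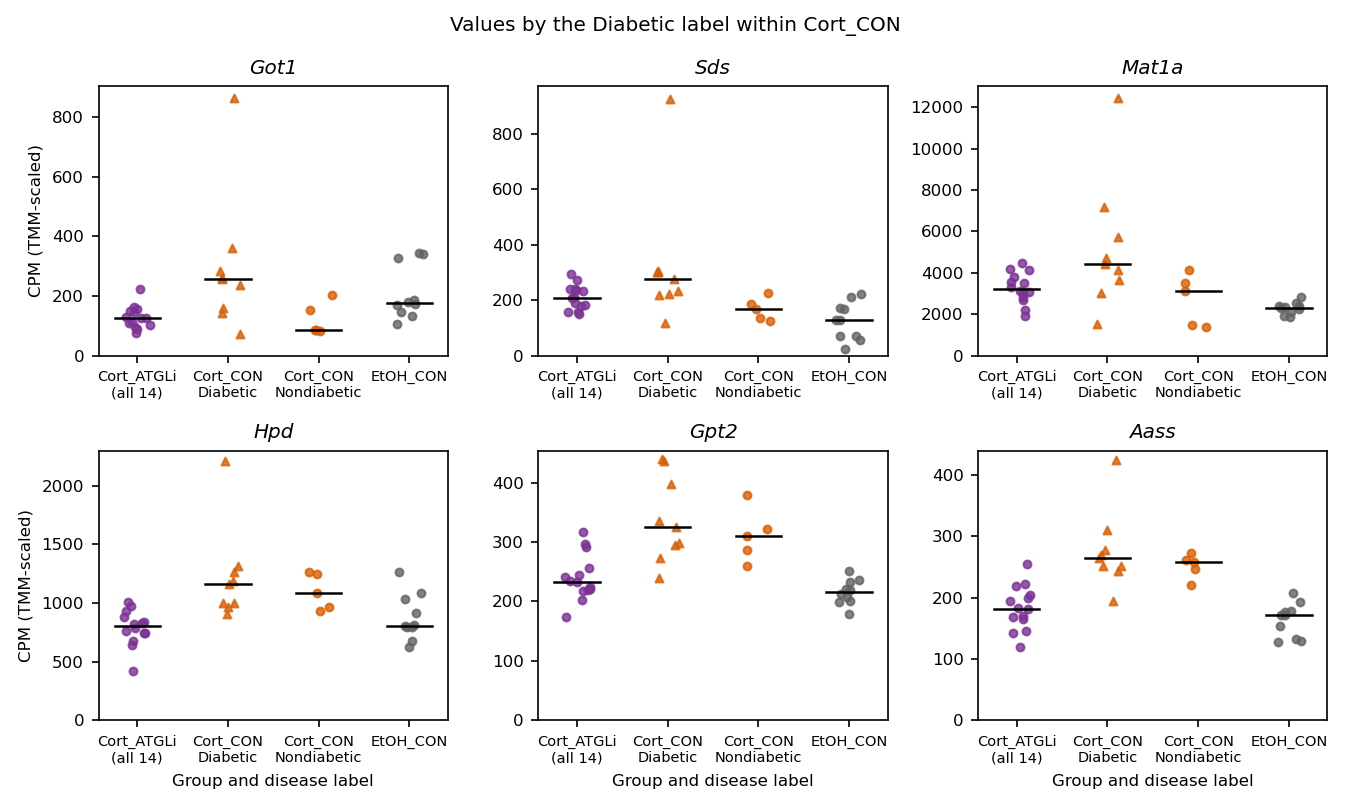
Level in CPM (y axis) of Got1, Sds, Mat1a, Hpd, Gpt2 and Aass in Cort ATGLi mice, in Cort CON mice labelled Diabetic (triangles), in Cort CON mice labelled Nondiabetic and in EtOH CON mice, with 1 point per mouse and a line at each median. Got1, Sds and Mat1a have single Diabetic mice far above all others. Hpd, Gpt2 and Aass have similar medians in Diabetic and Nondiabetic mice. Hpd and Aass also reach 2208 and 423.7 CPM in a Diabetic mouse, against at most 1262 and 272.6 CPM in Nondiabetic Cort CON mice.

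Insulin varied most widely within Cort ATGLi, from 2.192 to 38.04 in the labels, which give no unit. The slope of expression on log2 insulin was tested over these 14 mice. In edgeR 4 of the 43 genes rose with insulin and 0 fell, beside 5.92% of all genes (2.01% rising and 3.91% falling). Of the 43 slopes 34 were positive, beside 6253 of 12502 over all genes. Gnmt rose by 0.26 ± 0.06 on the log2 scale for each doubling of insulin (adjusted p = 0.0175), Gstz1 by 0.21 ± 0.04 (adjusted p = 0.00973), Kynu by 0.14 ± 0.04 (adjusted p = 0.0435) and Kmo by 0.13 ± 0.04 (adjusted p = 0.0408). All 4 calls rest on replicate 41, which had the lowest insulin and the lowest level of all 4 genes. Without it the slopes were 0.14, 0.13, 0.08 and 0.09, and 0 of the 43 genes passed, beside 5 of 12284 in all. With insulin on its linear scale 0 passed, beside 0 of 12287 genes in all. With limma 0 passed, beside 9 of 12502. With DESeq2 9 passed (8 rising and 1 falling), beside 1057 of 12502. The calls over the whole liver thus varied with these settings as well. Of the 13 macrophage genes, 11 were lower with higher insulin in the same fit, and replicate 41 had the highest summed macrophage level of Cort ATGLi, at 517.5 CPM. The same liver also had the highest sums of stellate (408.7 CPM), sinusoidal endothelial (269.2 CPM) and cholangiocyte genes (261.6 CPM) in its group, and their part in these slopes was not tested.

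**Figure D5:**
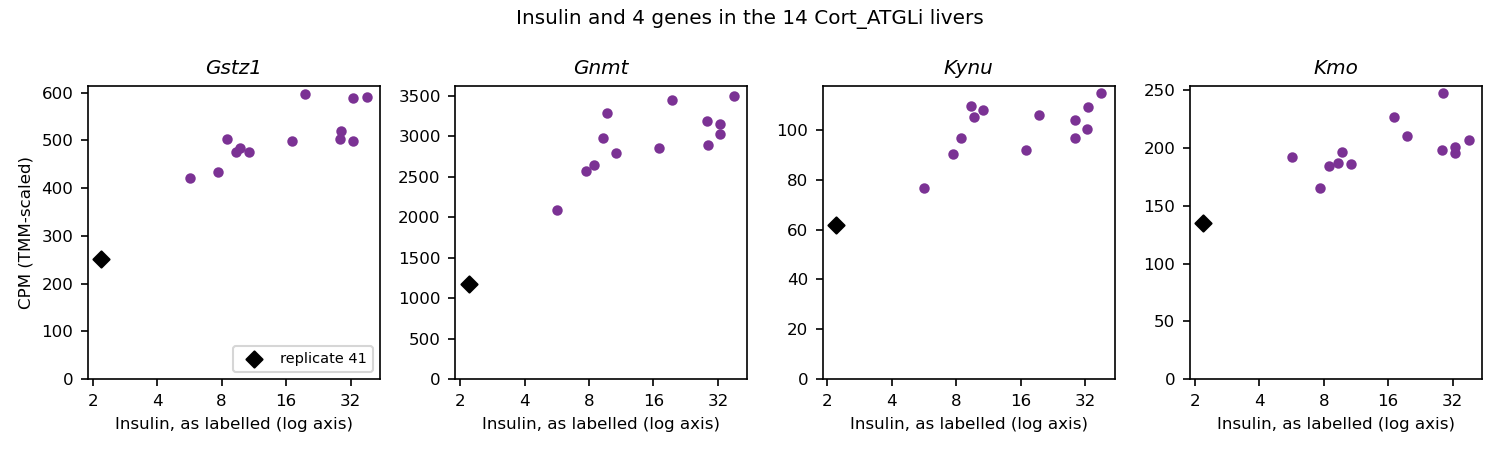
Level in CPM (y axis) of Gstz1, Gnmt, Kynu and Kmo against insulin as labelled (x axis, log scale, unit not given) in the 14 Cort ATGLi mice, with replicate 41 as a diamond. Replicate 41 lies at the lower left of every panel, at an insulin of 2.192, and the other 13 mice show no call without it.

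Of the 43 genes, 17 passed in none of the 5 comparisons of groups, and the same count over all genes was not made. They were Tat, Fah and Gstz1 of tyrosine breakdown, Afmid, Kynu and Haao of tryptophan breakdown, Gpt, Hal, Ftcd, Gls2 and Glud1, Bckdha, Bckdhb, Dbt and Hibadh of the branched-chain pathways, and Gnmt and Cth. Their fold changes on the control diet were at most 0.54 in size, the value of Tat. Genes on the other strand also overlap the 3′ ends of Gls2 (Spryd4), Bckdha (B3gnt8) and Mccc1 (Gm15952), so their counts carry the same doubt as those of Sds, Hpd and Prodh. A p above the threshold does not show that these genes were equal between groups.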

How the data were processed

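RNA of 48 powdered mouse livers was read with QuantSeq (50-base forward reads) per the labels' protocols. The authors deposited raw counts per gene. Which aligner and counting tool made them, and whether strand was used, is not given in the sources used here. A second deposited table holds size-factor-normalised signal (GRCm38, DESeq2 1.24.0 and R 3.6 per the submitters' processing notes). It equalled the counts divided by 1 factor per library, to a relative deviation of 1e-14, and was used only for gene symbols: 12491 IDs had a symbol there, 1728 took one from GENCODE M21, and 32 had none.

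Groups follow the labels. Genes with at least 10 counts in enough libraries and 15 in total were kept (edgeR's filterByExpr). One edgeR quasi-likelihood fit with TMM factors (edgeR 4.0.16, R 4.3.3) over all 48 libraries gave 4 group means, from which the comparisons and their interaction were drawn. The Diabetic comparison (12003 genes) and the insulin slope (12502 genes) were fitted within their own group. Adjusted p-values are Benjamini-Hochberg over all genes tested, and ± after a log2 fold change is 1 SE. No label says which libraries shared a cage or a day, so p-values measure the spread between these libraries. Depth was 7449109 to 21175603 counts.

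The 43 genes and the other gene lists were chosen with earlier results of these data known. Genes named with values were all listed ones that passed in a comparison of groups or had a log2 fold change of at least 1 in size, the others by range or count, and of each other list at most the 4 genes of smallest p in a comparison. Values for uncalled listed genes were added as description. Alternatives were RLE factors, no filter, DESeq2 1.42.0, limma voom with sample weights (limma 3.58.1), a clock index as covariate, sets without Diabetic libraries or libraries with pancreatic RNA, only the groups compared, linear insulin, and leaving out each library. The unpaired fits matched to the replicate block were added after seeing the data. The fits were tested on simulated data. Promoter windows came from RefSeq on GRCm38.p6.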

Additional observations from a re-analysis of the deposited data

Results flagged for a closer look

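Within the groups of 10 vehicle-treated mice, 12 values lay so far above the next highest mouse that the gap took more of the group's range than Dixon's test allows at 95%. Of the tests made (86), chance alone flags about 1 in 20. Most of these values came from 1 liver.

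In EtOH ATGLi replicate 14, Hpd was 1310 CPM, with 1000 CPM in the next highest mouse of the group. Sds was 329 CPM (next highest 165) and Sdsl 21.6 CPM (next highest 13.1). Got1 reached 327 CPM (next highest 180), Gls2 469 CPM (next highest 311) and Aass 254 CPM (next highest 173). The histidine genes Amdhd1 and Ftcd were 338 CPM (next highest 255) and 707 CPM (next highest 462). Agxt was 204 CPM (next highest 125) and Afmid 47.9 CPM (next highest 28.8). The clock index of this liver was 6.82, against a group mean of 2.85.

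In EtOH CON replicate 12, Gstz1 was 715 CPM (next highest 560) and Haao 687 CPM (next highest 553).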

How the results depend on the processing

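The next numbers cover the settings other than leaving out each library in turn, the replicate block and its unpaired match. A separate fit without Cort ATGLi replicate 41 is counted among them. Of the values for single genes, 2440 kept their side of the threshold without a called value changing sign. Another 60 lost a call, 35 gained one and 2 reversed. Both reversals were Got1 without the libraries labelled Diabetic: -0.81 with corticosterone on the control diet (0.14 with all) and 0.08 with atglistatin under corticosterone (-0.85 with all). The cause was not tested. The count for atglistatin under corticosterone fell to 1 without those libraries and to 5 with limma (4 lower, 1 higher). Over all genes these fits called 609 of 13070 and 2063 of 12688. DESeq2 called 1 of the 43 for the interaction, beside 265 of 12688 genes. For atglistatin under vehicle limma called 2, beside 899 of 12688. For the insulin slope the count was 0 without replicate 41, 0 with linear insulin, 0 with limma and 9 with DESeq2. Over all genes these 4 settings called 5, 0, 9 and 1057, in that order. The counts for corticosterone ran from 18 to 26 on the control diet and from 13 to 20 on the atglistatin diet, over the same settings. The 26 came without Cort ATGLi replicate 41.

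Leaving out 1 library gave 22 to 26 genes for corticosterone on the control diet, 14 to 18 on the atglistatin diet, 6 to 11 for atglistatin under corticosterone, 0 for atglistatin under vehicle, 0 to 1 for the interaction, 0 for the Diabetic label and 0 to 6 for the insulin slope. No called value changed sign in those fits, while uncalled values near 0 did, such as Got1 on the control diet (0.14 with all, -0.21 without Cort CON replicate 45).

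Some replicate numbers recur between groups, but same-numbered livers did not deviate together (r = -0.113 to 0.054), so the numbers were not taken as pairs. A replicate block over the 2 numbers shared by Cort ATGLi and EtOH ATGLi gave 0 genes, and the same 4 livers unpaired gave 2. In the block fits and their unpaired matches together, 32 values for single genes lost a call and 140 did not change side. The block over the 4 numbers shared by EtOH ATGLi and EtOH CON gave 0, as did the same 8 livers unpaired. Every one of the 43 genes had at least 39 counts in every library. The limits are few mice for the Diabetic label and the insulin slope, and counts near overlapping genes whose strand handling is not given.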

Other observations

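Other enzymes of amino acid breakdown, outside the 43 genes, also moved both ways. Of 38 tested, corticosterone raised 12 and lowered 9 on the control diet (55.3%, beside 44.2% of all genes tested). It raised 9 and lowered 8 on the atglistatin diet (44.7%, beside 36.7%). Oat, ornithine aminotransferase, averaged 114 CPM in Cort ATGLi, 250 CPM in Cort CON, 418 CPM in EtOH ATGLi and 398 CPM in EtOH CON. Its response to corticosterone differed between diets (interaction -1.2 ± 0.22, adjusted p = 0.000582), with a fall of 1.87 ± 0.15 on the log2 scale with atglistatin (adjusted p = 7.04e-14). Dmgdh, which oxidises the dimethylglycine that Bhmt produces, rose with corticosterone on the control diet (0.82 ± 0.10, adjusted p = 2.96e-09). Ppm1k, the phosphatase that activates the branched-chain ketoacid dehydrogenase, fell there (-1.4 ± 0.15, adjusted p = 6.13e-11).

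Of 29 amino acid transporter genes tested, corticosterone raised 10 and lowered 9 on the control diet (65.5%, beside 44.2% of all genes tested). Slc6a9, a glycine transporter, averaged 53.5 CPM in Cort CON and 22.4 CPM in EtOH CON (1.26 ± 0.12, adjusted p = 1.01e-11). Glul, glutamine synthetase, averaged 634 CPM in Cort ATGLi, 1270 CPM in Cort CON, 735 CPM in EtOH ATGLi and 720 CPM in EtOH CON, and its response to corticosterone differed between diets (interaction -1.03 ± 0.23, adjusted p = 0.0109). Among 16 transcription factor and receptor genes, corticosterone raised 8 and lowered 3 on the control diet (68.8%, beside 44.2% of all genes tested). The glucocorticoid receptor gene Nr3c1 was among the lower ones (-0.42 ± 0.07, adjusted p = 1.42e-06), and Hnf4a was among the higher ones (0.65 ± 0.09, adjusted p = 3.72e-08).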
